A study of Homo sapiens with 4 samples.

Results

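ZNF664 and ZNF672 are 2 zinc finger genes of the 61806 genes in the deposited count table, and each was found as 1 row by its symbol. They were chosen by their measured counts and CPM between the vectors, as the zinc finger genes with the strongest opposite differences. Agreement within groups was also part of the rule, so these values are given below as a description, without a test. Transcripts were counted in 4 RNA-seq libraries of U251-MG, an established human glioblastoma line that the labels call a glioma cell of wild-type genotype. Cells of the COL8A1 group had been infected with a lentivirus that carries the COL8A1 cDNA in the vector pCDH-CMV-MCS-EF1-puro, in which a CMV promoter drives the insert and an EF1 promoter drives puromycin resistance. Cells of the control group (NC) had been infected with a negative control virus, so all 4 libraries come from transduced cells, and there were 2 libraries per group. The labels do not give the content of the control insert, whether the transduced cells were a pool or a clone, or whether replicates stem from separate cultures or infections, so any p-value reflects the spread between libraries that may be technical repeats. Where 4 counts of a gene are given, they stand in the order NC replicate 1, NC replicate 2, COL8A1 replicate 1 and COL8A1 replicate 2.

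C2H2 zinc finger proteins are the largest family of DNA-binding proteins in the human genome. Each finger folds around a zinc ion held by cysteines and histidines and contacts a few bases, and fingers in tandem read longer sites. Many family members repress transcription by recruiting chromatin complexes through partners such as TRIM28, and the targets of most members, ZNF664 and ZNF672 among them, are little described.

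ZNF664 (ENSG00000179195) lies on the plus strand of chromosome 12 from 123971845 to 124015439 in build hg38 (GENCODE release 29), a span of 43595 bases with 14 annotated transcripts. Its longest principal transcript has 6 exons, and the whole coding sequence, 783 bases for 261 residues, sits in exon 6. That last exon, from 124011546 to 124015422, makes up 75.9% of the transcript. ZNF672 (ENSG00000171161) lies on the plus strand of chromosome 1 from 248838210 to 248849517, a span of 11308 bases with 7 annotated transcripts. The principal transcript of ZNF672 has 4 exons, with all 1356 coding bases, for 452 residues, in exon 4, which makes up 82.5% of the transcript.

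The sequences upstream of the RefSeq starts are shown because a neighbour whose level is described below starts close to that of ZNF664. RefSeq starts ZNF664 at 123973215, inside the GENCODE span given above, so its window lies within that span. Of the 2 genes, 2 matched the RefSeq promoter table (GRCh38.p14), and the parts of the 250 bases before the RefSeq start that no annotated GENCODE exon covers are printed 5′ to 3′ on the plus strand. They are chr12:123972965-123973122 for ZNF664 and chr1:248837974-248838209 for ZNF672, and capitals mark the GC box GGGCGG and the CCAAT box CCAAT on either strand.
ZNF664: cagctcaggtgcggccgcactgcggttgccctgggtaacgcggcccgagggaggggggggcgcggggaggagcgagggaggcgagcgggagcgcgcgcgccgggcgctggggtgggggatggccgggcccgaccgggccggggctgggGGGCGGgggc
ZNF672: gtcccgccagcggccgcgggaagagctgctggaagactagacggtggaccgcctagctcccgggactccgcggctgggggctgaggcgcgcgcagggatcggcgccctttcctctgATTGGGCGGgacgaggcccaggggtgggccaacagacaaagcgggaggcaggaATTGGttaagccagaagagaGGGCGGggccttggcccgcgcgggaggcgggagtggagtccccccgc
In ZNF672 the first capital run is a CCAAT box on the minus strand that runs into a GC box. Over the whole 250 bases ZNF664 had 3 GC boxes and 0 CCAAT boxes, and ZNF672 had 2 of each. A GC box was found in 42.6% and a CCAAT box in 32.0% of 34788 distinct upstream windows of that length. The TATA box TATAAA, present on either strand in 10.8% of the windows, was found in neither gene. The ZNF664 window held 39 CpG dinucleotides, more than 97.3% of all windows, and the ZNF672 window held 23, more than 74.2%, where the median was 11. The same window stands before ZNF664-RFLNA, a readthrough gene in RefSeq. The RefSeq start of CCDC92, on the minus strand, lies 383 bases away from that of ZNF664, and the upstream windows of the 2 genes overlap by 117 bases.

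Libraries held between 27923796 and 33576228 counts in all. COL8A1, the gene in the vector, had 77, 82, 4290 and 2259 counts, the direction that the labels give, and was 43.8-fold higher with its vector (log2 fold change 5.45), a difference that did not pass in edgeR (adjusted p = 0.0681) and passed in DESeq2 (adjusted p = 6.25e-72). Glioma and astrocyte markers summed to between 4305 and 5194 CPM (counts scaled to a common library size) in the 4 libraries, with VIM, SOX2, NES and CD44 each at 392 CPM or more and CHI3L1 at or below 0.094 CPM. The immune markers CD3E and AIF1 and the oligodendrocyte marker MOG were at 0 in every library. Among the other markers CDH5, a cadherin of endothelial cells, was at 60.1 to 78.3 CPM, KRT19 at 8.46 to 11.5 CPM and SYT1 at 21.3 to 28.7 CPM, without PECAM1, EPCAM or RBFOX3 above 0.48 CPM. Over the 4 libraries, marker sums lay from 3.56 to 5.55 CPM for immune cells and from 60.8 to 79.1 CPM for endothelial cells.

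Some glial and mesenchymal markers parted by group along with ZNF664 and ZNF672. Of 32 markers 20 were tested, and 0 of them passed in edgeR at an adjusted p of 0.05, against 0.0117% of all genes tested. That share is 2 of 17030 genes, so a 0 for these markers or for the lists below says little. At an unadjusted edgeR p under 0.05 there were 6 (30%), all higher in COL8A1 cells, against 6.07% of all genes, and DESeq2 called 3 (15%), against 1.06%. The 3 were SLC1A3, a glutamate transporter of astrocytes, COL1A2, a fibrillar collagen chain, and FABP7, a fatty acid binding protein of radial glia. SLC1A3 had 836, 918, 1677 and 1645 counts (log2 fold change 1.04, SE 0.105, edgeR adjusted p = 0.165, DESeq2 adjusted p = 2.52e-10). GFAP, the intermediate filament of astrocytes, had 21, 19, 65 and 51 counts, a 3.11-fold higher level in COL8A1 cells (edgeR adjusted p = 0.580, DESeq2 adjusted p = 0.176). The 5 mesenchymal markers summed to 665.2 to 681.3 CPM in NC and 816.7 to 861.0 CPM in COL8A1 cells. FN1, COL1A2 and THY1 made up most of that sum. COL1A1 (83, 50, 62 and 70 counts) and PDGFRB (0, 18, 0 and 2 counts) overlapped between groups. Astrocyte and glioma markers summed to 4305 to 4793 CPM in NC and 4548 to 5194 CPM in COL8A1 cells, which overlap. VIM, CD44, SOX2 and EGFR overlapped too, and SYT1, CD68 and VWF were lower in both COL8A1 libraries. The part of these markers in the values of ZNF664 and ZNF672 was not tested.

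ZNF664 had 14003, 15270, 1534 and 1397 counts. Scaled to library size, its level was 457 and 453 CPM with the control vector and 48.3 and 50.3 CPM with the COL8A1 vector. Both COL8A1 libraries were far below both NC libraries, and the replicates of each group lay close together. The mean was 454.8 ± 2.54 CPM with the control vector and 49.3 ± 1.44 CPM with the COL8A1 vector (SD, n = 2 each), a 9.23-fold lower level in COL8A1 cells. The fitted log2 fold change was −3.21, and the 4 ratios of a COL8A1 library to an NC library ran from −3.24 to −3.17 on the log2 scale.

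ZNF672 had 188, 240, 1263 and 1034 counts. Its level was 6.13 and 7.12 CPM with the control vector and 39.7 and 37.2 CPM with the COL8A1 vector. Both COL8A1 libraries were above both NC libraries, the opposite order to ZNF664. The mean was 6.63 ± 0.70 CPM with the control vector and 38.5 ± 1.77 CPM with the COL8A1 vector (SD, n = 2 each), a 5.81-fold higher level in COL8A1 cells. The fitted log2 fold change was 2.54, and the 4 library ratios ran from 2.39 to 2.70 on the log2 scale. With 2 libraries each, the groups did not overlap in 37.5% of all 17030 genes tested, and 5.21% had a log2 fold change above 1 in size.

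**Figure D1:**
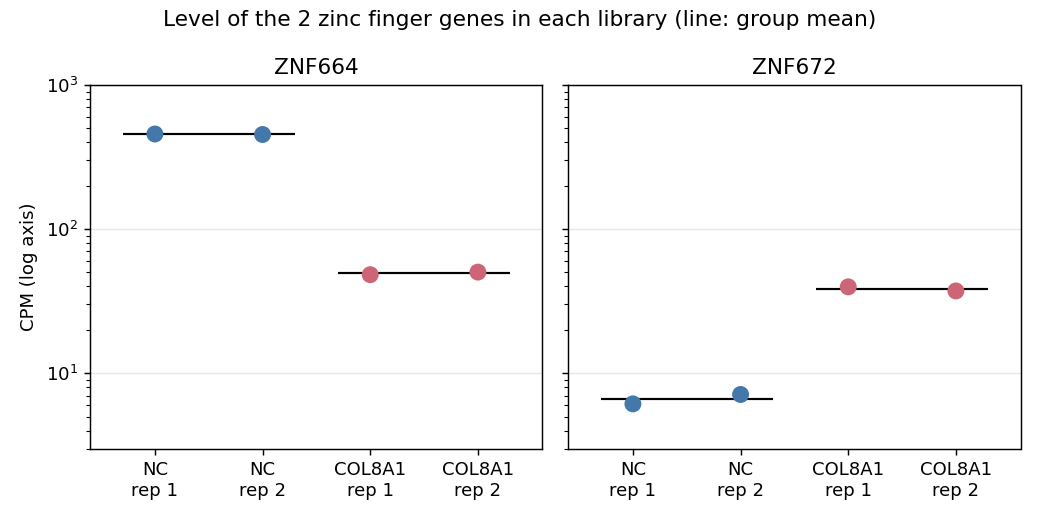
Level of ZNF664 (left) and ZNF672 (right) in CPM on a log axis, 1 point per library, with a line at each group mean. ZNF664 stands at 457 and 453 CPM in NC and 48.3 and 50.3 CPM in COL8A1 cells, and ZNF672 at 6.13 and 7.12 CPM in NC and 39.7 and 37.2 CPM in COL8A1 cells.

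The replicates of a group differed by little more than the counting error. In ZNF664 replicate 2 differed from replicate 1 by −0.01 on the log2 scale in NC (counting SE 0.017) and by 0.06 in COL8A1 cells (counting SE 0.053). In ZNF672 the differences were 0.22 in NC (counting SE 0.14) and −0.09 in COL8A1 cells (counting SE 0.061). These errors cover counting only, and whether reads copied by PCR were collapsed is not stated. Over the 11277 genes with a mean of at least 5 CPM, the median size of the replicate difference was 0.11 in NC and 0.13 in COL8A1 cells. A larger difference than that of ZNF664 was seen in 93.6% of these genes in NC and 75.3% in COL8A1 cells, and a larger one than that of ZNF672 in 27.2% and 63.1%. ZNF664 thus repeated more closely than most genes, and ZNF672 less closely than most in NC, where it had 188 and 240 counts. Since agreement within groups was part of the rule of choice, these shares describe the choice and do not test it.

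Few genes at that level stood further apart between the vectors. Of the 11277 genes, 1 had a lower log2 fold change than ZNF664, the gene ENSG00000276690, with 517, 1100, 1 and 46 counts. There were 4 genes with a higher log2 fold change than ZNF672. They were COL8A1 itself and METTL7A, ATP6V1G2-DDX39B and PIK3R2, and in the last 3 the groups overlapped, since only COL8A1 replicate 1 was high. In 14 of the 11277 genes the log2 fold change was above 2 in size, and in 7 of these it was also larger than the replicate difference of either group. Those 7 were ZNF664, ZNF672, COL8A1, RAB31, HAS3, ZFHX3-AS1 and BCL2L11, and these values describe the choice of the 2 genes and do not test it.

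**Figure D2:**
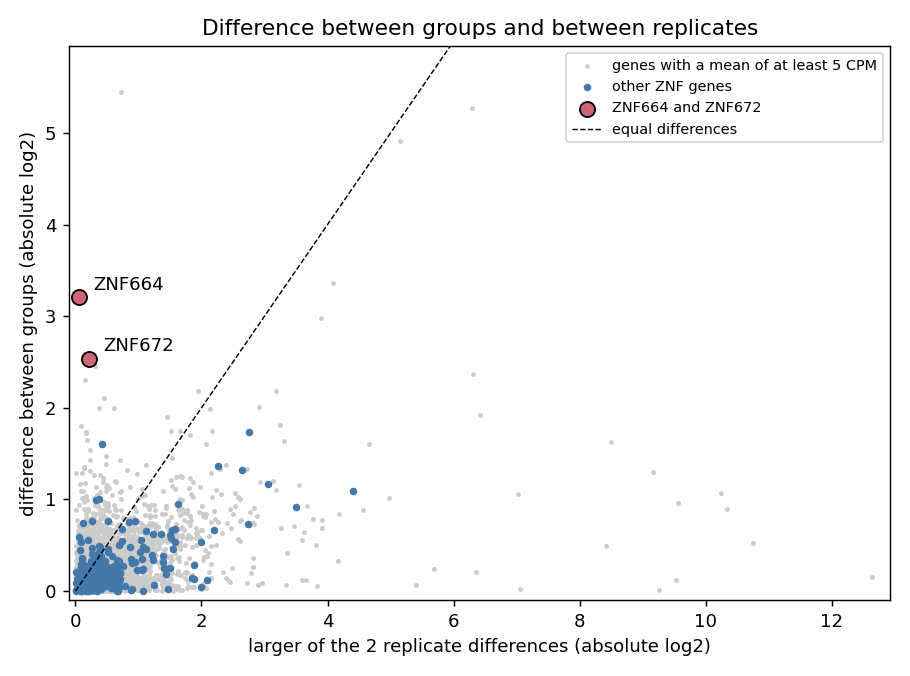
Size of the log2 difference between the groups against the larger of the 2 replicate differences, for 11277 genes with a mean of at least 5 CPM (grey), the ZNF genes among them (blue) and ZNF664 and ZNF672 (red); the dashed line marks equal differences. ZNF664 and ZNF672 lie far above the dashed line, with group differences of 3.21 and 2.54 in size and replicate differences of at most 0.06 and 0.22.

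Levels of the 2 genes can be compared only per length. Per kilobase of exon (6340 annotated exon bases for ZNF664 and 3741 for ZNF672), ZNF664 was at 71.7 ± 0.40 CPM per kb in NC and 7.77 ± 0.23 in COL8A1 cells, and ZNF672 was at 1.77 ± 0.19 and 10.3 ± 0.47 (SD, n = 2 each). Per kilobase the order of the 2 genes was therefore turned, with ZNF664 the higher in both NC libraries and ZNF672 the higher in both COL8A1 libraries. In CPM ZNF664 stayed the higher in the COL8A1 libraries, at 48.3 and 50.3 against 39.7 and 37.2. The turn thus rests on the exon lengths used, and the annotation release of the counting is not stated. For scale, the median over 16631 tested genes with a known length was 3.82 CPM per kb in NC and 3.88 in COL8A1 cells. ZNF664 stood above 96.8% of these genes in NC and above 66.5% in COL8A1 cells, while ZNF672 stood above 35.2% and 72.7%.

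Little of the ZNF664 transcript is shared with other genes. Of the 5059 windows of 50 bases in its principal transcript, 259 (5.12%) also occur in annotated transcripts of other genes. Those genes were RFLNA with 152 windows, the protein-coding gene ENSG00000274874 with 125, PCSK7 with 6 and SNRPF with 4. For ZNF672, 0 of 2940 windows occur in another gene. Reads were not available here and their length is not given in the sources used here, so this describes the annotation, not the counted reads.

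The genes linked to ZNF664 by shared exons on its strand, directly or through another gene, were counted at very low levels. RFLNA encodes refilin A, an actin-bundling partner of filamins, and its GENCODE model runs on the same strand from 123973241 to 124316024 and thus takes in readthrough transcripts from the ZNF664 start, where RefSeq places RFLNA alone from 124289164 to 124316024. RFLNA had 5, 8, 17 and 16 counts, so that its groups did not overlap and it stood the other way round from ZNF664 (log2 fold change 1.45, SE 0.582, edgeR adjusted p = 0.816). It shares 247 exon bases with ZNF664. ENSG00000274874, which shares 173 exon bases with ZNF664, had 0 counts in both NC libraries and in COL8A1 replicate 1 and 45 in COL8A1 replicate 2, and was too low to be tested. ENSG00000275389, a noncoding gene that shares exons with ENSG00000274874 and not with ZNF664, had 8, 12, 5 and 7 counts.

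Adding these neighbours moved the log2 fold change of ZNF664 from −3.21 to −3.16, by more than its replicate SD of 0.030 on the log2 scale. ZNF664 made up between 95.4% and 99.9% of the reads summed over the 4 genes in each library. The sum was at 455.4 ± 2.42 and 50.9 ± 2.68 CPM in NC and COL8A1 cells (SD, n = 2), a log2 fold change of −3.16. The 3 other genes together held between 13 and 68 counts per library. For ZNF672, 0 counted genes share exons with it on its strand.

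CCDC92, a coiled-coil protein gene that starts close to ZNF664 on the other strand, had another order than ZNF664. It had 872, 1068, 1147 and 321 counts. COL8A1 replicate 1 was the highest of the 4 libraries and COL8A1 replicate 2 the lowest, while ZNF664 was equally low in both. Its level was 30.1 ± 2.30 and 23.8 ± 17.3 CPM in NC and COL8A1 cells (SD, n = 2), and its log2 fold change was −0.33 (SE 0.533, edgeR adjusted p = 0.935). In GENCODE, which starts ZNF664 earlier than RefSeq, the spans of the 2 genes overlap by 987 bases and their exons by 37 bases on opposite strands. Since the strand setting of the counting is not given, reads from those bases cannot be told apart. The processed pseudogene ENSG00000256827 inside ZNF664 had 0 counts in all 4 libraries.

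The other genes around ZNF664 had smaller differences or very low counts. ATP6V0A2, a subunit of the proton pump of acidic organelles, had 1439, 1606, 1532 and 1310 counts (log2 fold change 0.01, SE 0.086, edgeR adjusted p = 0.992). The nearest tested gene before ZNF664, ENSG00000269997, had 11, 2, 0 and 13 counts and no order by group.

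The well-counted genes around ZNF672 had log2 fold changes between −0.11 and 0.18. SH3BP5L, an exchange factor for RAB11, lies on the minus strand with its start 11576 bases before that of ZNF672. SH3BP5L had 1324, 1596, 1662 and 1318 counts (log2 fold change 0.14, SE 0.106, edgeR adjusted p = 0.860). ZNF692, another zinc finger gene, lies on the minus strand with its end 488 bases from that of ZNF672. ZNF692 had 411, 535, 491 and 325 counts, with overlapping groups (log2 fold change −0.11, SE 0.193, edgeR adjusted p = 0.942). PGBD2, derived from a transposase, had 144, 143, 142 and 157 counts (log2 fold change 0.18, SE 0.228, edgeR adjusted p = 0.911). The groups of SH3BP5L did not overlap in CPM, and those of ZNF692 and PGBD2 did.

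Within 250 kb of the 2 genes the table held 35 other genes, of which 10 passed the low-count filter. Of these 10, 0 passed the edgeR threshold, against 0.0117% of all genes tested, and 0 passed in DESeq2, against 1.06%. At an unadjusted edgeR p under 0.05 there was 1, against 6.07% of all genes. It was ENSG00000270130, a transcript inside CCDC92 named after its values were seen, with 1, 4, 16 and 10 counts. The median log2 fold change of the 10 was 0.16, against 0.001 over all genes tested, and 5 of the 10 had fewer than 50 counts in every library.

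**Figure D3:**
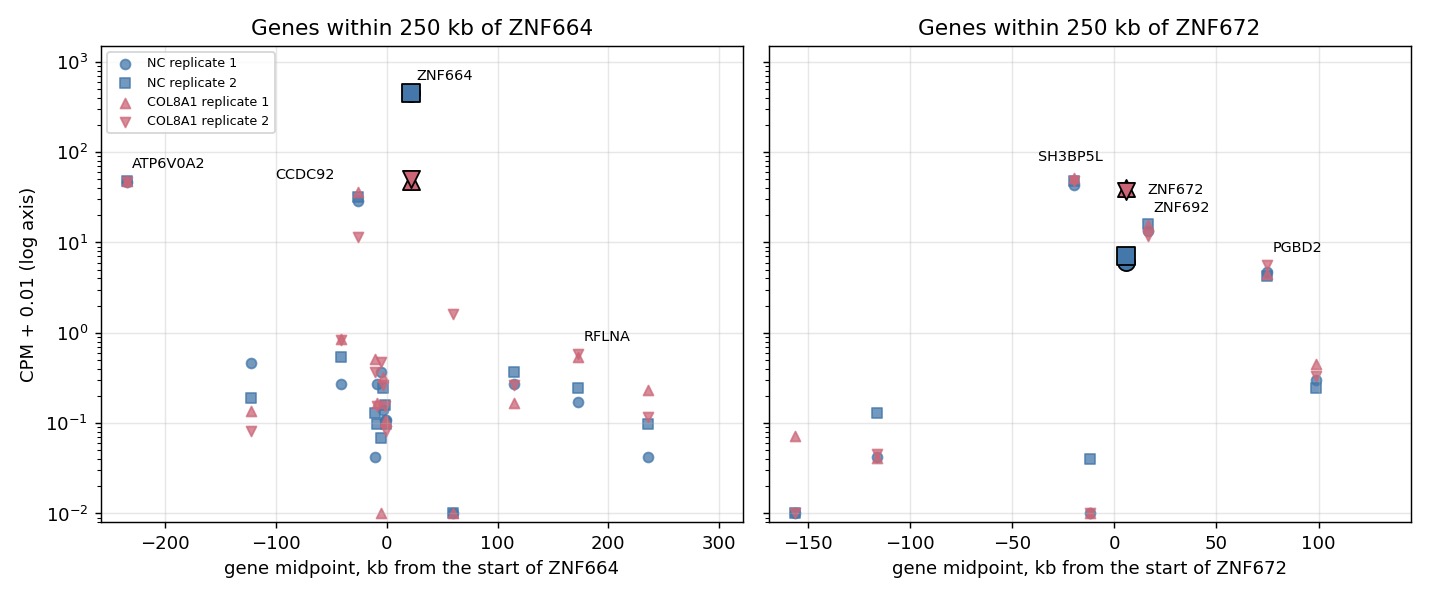
Level of each gene with at least 1 count within 250 kb of ZNF664 (left) and ZNF672 (right), in CPM + 0.01 on a log axis, against the distance of the gene's midpoint from the start of ZNF664 or ZNF672; blue marks NC and red COL8A1 libraries, and the outlined symbols are ZNF664 and ZNF672. The outlined symbols part by group, while ATP6V0A2, SH3BP5L, ZNF692 and PGBD2 lie together and CCDC92 is low in COL8A1 replicate 2 alone.

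Over the zinc finger family as a whole, the differences were small and went both ways. The table held 555 other genes named ZNF and a number, of which 465 passed the low-count filter. Of the 465, 249 had a log2 fold change above 0 and 216 below, with a median of 0.02 against 0.001 over all genes tested, and the middle of the distribution ran from −0.14 to 0.19 (quartiles), against −0.14 to 0.17. In edgeR 0 of them passed the threshold, against 0.0117% of all genes tested, which is only 2 genes. At an unadjusted edgeR p under 0.05 there were 11 higher and 6 lower, 3.66% of the family, against 6.07% of all genes. Among all genes 3.44% were higher and 2.63% lower. DESeq2 called 3 higher and 2 lower, 1.08% of the family, against 1.06% of all genes. The other 465 genes summed to 8143, 8137, 8252 and 8140 CPM in the 4 libraries, in the order used for counts.

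ZNF664 and ZNF672 were the outermost of the 467 tested ZNF genes at either end. Their choice by the strongest opposite differences fixed this, so it describes the choice and tests nothing. The next lowest was ZNF773 with a log2 fold change of −1.51, and the next highest was ZNF551 with 1.74, whose counts of 133, 141, 117 and 689 were high in COL8A1 replicate 2 alone. Per kilobase, ZNF664 ranked 1 of the 467 genes in NC and 39 in COL8A1 cells, and ZNF672 ranked 266 in NC and 22 in COL8A1 cells. In the same order of libraries, ZNF664 alone took 5.31%, 5.27%, 0.58% and 0.61% of all scaled ZNF counts, and ZNF672 took 0.071%, 0.083%, 0.48% and 0.45%.

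Among the other family members, ZNF875, ZNF773, ZNF580 and ZNF776 had the smallest edgeR p-values, and all 4 passed in DESeq2 and not in edgeR. ZNF875 had 170, 189, 461 and 542 counts (log2 fold change 1.61, SE 0.198, edgeR adjusted p = 0.273, DESeq2 adjusted p = 2.76e-07). ZNF773 had 167, 228, 61 and 66 counts (log2 fold change −1.51, SE 0.256, edgeR adjusted p = 0.457, DESeq2 adjusted p = 0.00279). ZNF580 was at 6.21 ± 0.99 and 12.4 ± 1.23 CPM in NC and COL8A1 cells, and ZNF776 at 25.6 ± 1.04 and 17.6 ± 0.34 CPM (SD, n = 2). The fifth gene called by DESeq2 was ZNF767P, a pseudogene, which was named after its values were seen. These 5 went both ways, and each differed by less than ZNF664 or ZNF672, which follows from how ZNF664 and ZNF672 were chosen.

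**Figure D4:**
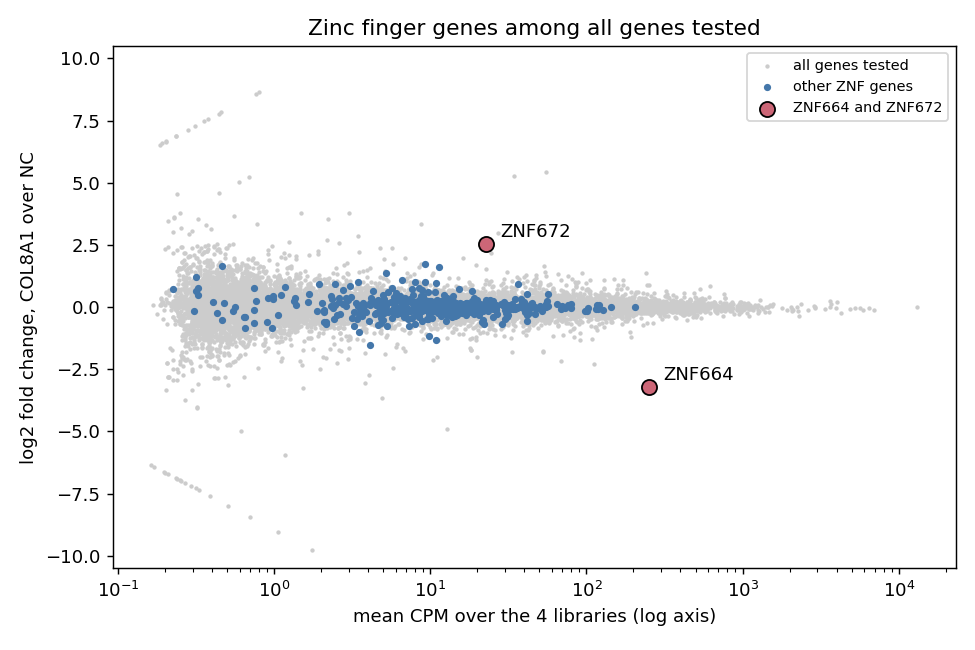
Log2 fold change of COL8A1 over NC against mean CPM on a log axis for the 17030 genes tested (grey), 465 ZNF genes (blue) and ZNF664 and ZNF672 (red). The blue points lie between −1.51 and 1.74. The red points, chosen for their strong opposite differences, lie outside them at −3.21 and 2.54.

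The corepressors through which many zinc finger proteins act were measured in full, with all 38 listed genes tested. There were 21 with a log2 fold change above 0 and 17 below, with a median of 0.04 against 0.001 over all genes. In edgeR 0 passed the threshold, against 0.0117% of all genes, and 3 (all higher) had an unadjusted p under 0.05, 7.89% against 6.07%. DESeq2 called 1, or 2.63%, against 1.06% of all genes. The 1 called was MBD3, a subunit of the NuRD deacetylase complex, with 3818, 3199, 7509 and 6362 counts (log2 fold change 1.08, SE 0.144, edgeR adjusted p = 0.312, DESeq2 adjusted p = 2.14e-07). Both COL8A1 libraries of MBD3 were above both NC libraries, with levels of 109.7 ± 20.9 and 232.7 ± 5.09 CPM (SD, n = 2). Among the 4 smallest edgeR p-values of the list were also those of RBBP4, a histone-binding subunit of the same complex (log2 fold change 0.34, SE 0.107, edgeR adjusted p = 0.747), and MBD2, which binds methylated DNA (−0.21, SE 0.085, edgeR adjusted p = 0.816).

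The genes with the most alike pattern were found by the distance between log2 CPM deviations from each gene's mean over the 4 libraries. They were selected for this likeness among genes with a mean of at least 5 CPM, so they are described without a test. Nearest to ZNF664 was ZFHX3-AS1, an antisense RNA, at a distance of 0.83, with 287, 346, 63 and 44 counts. RAB31, a small GTPase of vesicle transport, followed at 0.91 with 5386, 6600, 1172 and 1065 counts. HAS3, a hyaluronan synthase, stood at 1.13, and MAFG, a small Maf transcription factor, at 1.41. These 4 were lower in both COL8A1 libraries, with log2 fold changes from −2.46 for ZFHX3-AS1 to −1.80 for MAFG, and none reached the −3.21 of ZNF664. Both points follow from the selection for likeness to a gene that was itself chosen for a strong difference.

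Nearest to ZNF672 was NUDT16, which removes caps from small nucleolar RNA, at a distance of 0.55, with 174, 248, 856 and 695 counts. CRY2, a repressor of the circadian clock, followed at 0.83 with 81, 90, 298 and 232 counts. GEN1, a nuclease that resolves Holliday junctions, followed at 0.94 with 846, 820, 2474 and 2352 counts. DDIAS followed at 0.99, and ZNF875, described above, at 1.03. All 5 were higher in both COL8A1 libraries, with log2 fold changes from 1.54 for DDIAS to 1.99 for NUDT16, below the 2.54 of ZNF672. As for ZNF664, this follows from how the genes were selected.

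**Figure D5:**
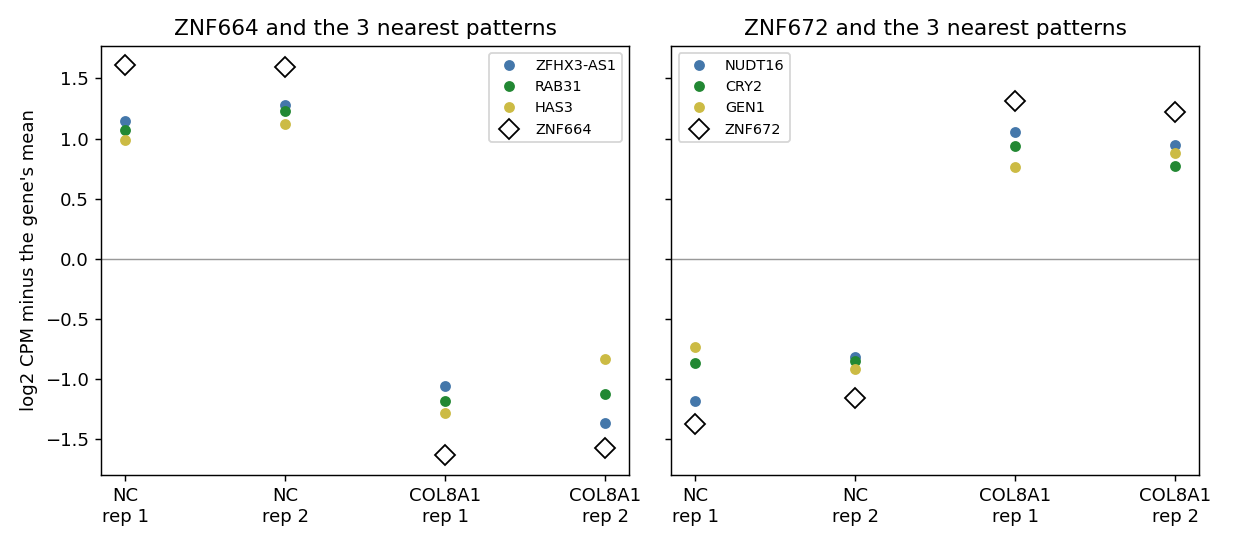
Log2 CPM minus the gene's own mean over the 4 libraries for ZNF664 (left) and ZNF672 (right), as open diamonds, and for the 3 genes nearest to each, as filled points. ZNF664 lies at 1.61 and 1.60 in NC and −1.63 and −1.57 in COL8A1 cells, ZNF672 at −1.37 and −1.16 and at 1.31 and 1.22, and in all 4 libraries the filled points lie nearer to 0.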

How the data were processed

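The authors deposited a table of unnormalized read counts, with a column for each library, per the file headers. The submitters' processing notes name HISAT2 2.2.1, Trim Galore 0.6.9, featureCounts (version given as 0.3) and hg38. The strand setting, parameters and annotation release are not stated there. Groups and replicate numbers come from the sample titles. Of the 61806 genes, 58254 were placed with GENCODE release 29, and 1 line that names no gene was left out.

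The fit used R 4.3.3 and edgeR 4.0.16: filterByExpr, TMM factors (0.993 to 1.007) and the quasi-likelihood test with group as the only term, on all 17030 genes kept, with 2 residual degrees of freedom. Benjamini-Hochberg adjustment ran over all of them, with a threshold of 0.05. SE is the absolute log2 fold change over the square root of F. CPM use the scaled library sizes. DESeq2 1.42.0 on the same genes, other scalings and filters, the replicate number as a block and each library left out were alternatives. The fits were tested on simulated data.

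Named were ZNF664, ZNF672, COL8A1, genes overlapping either zinc finger gene, the nearest tested genes, the 5 nearest patterns, and the 4 smallest p-values among ZNF and corepressor genes. The nearest proteins, also in the rule, were not analysed here, and some genes under the rule are not reported here. Members and lists were chosen with earlier results of these data known. The window match between transcripts was added later.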

Additional observations from a re-analysis of the deposited data

How the results depend on the processing

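The log2 fold change of ZNF664 stayed between −3.24 and −3.18, and that of ZNF672 between 2.43 and 2.65, with each library left out in turn. The sum over ZNF664 and the genes linked to it by shared exons, directly or through another gene, gave −3.16. With a library left out the sum gave −3.22 to −3.11. DESeq2 size factors, library size alone, DESeq2 and both other filters moved either by less than the replicate SD. The sum moved the value of ZNF664 by more than its replicate SD of 0.030. With the replicate number as a block the values were −3.21 and 2.54. The numbers share no stated origin, and over all genes same-numbered libraries did not deviate together (correlation −0.04 over 17030 genes). This value does not cover single genes, and EGFR, for example, was lower in replicate 2 of both groups. The count of genes past the edgeR threshold was 2 in the fit of the report, 17 without a low-count filter, 1 with the replicate block and 0 to 3 with a library left out, where the lone library of a group is assumed to vary like the other group. DESeq2 called 180 genes, 5 other ZNF genes and 1 corepressor, while every edgeR setting called 0 other ZNF, corepressor or neighbouring genes. Depth limits the precision of low genes such as RFLNA, which had 5 to 17 counts per library. Why counts differ between settings was not tested.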
